A study of Mus musculus with 26 samples.

Results

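The response to tumor necrosis factor (TNF) of neural progenitor cells (NPCs) differentiating into astrocytes was compared between 72 h and 24 h of exposure. The quantity compared was a difference of differences, the TNF effect at 72 h minus the TNF effect at 24 h, where a TNF effect is the mean log2 signal of TNF-treated cells minus that of untreated cells of the same time. All probe sets of the array with a gene symbol were members, 23410 of 35556. The comparison used 11 of the 26 arrays of the series, 2 of TNF-treated cells at 72 h and 3 in each of the other groups. A positive value is a TNF effect that was larger, or less negative, at 72 h, and a value of 1 on this log2 scale is a factor of 2.

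Primary neurospheres came from the ventricular zone of C57BL/6J embryos at embryonic day 14. They were plated on poly-L-ornithine in DMEM with 10% fetal bovine serum, which starts astrocyte differentiation, so that untreated and TNF-treated cells were all exposed to serum. The 4 groups were untreated cells at 24 h, untreated cells at 72 h, and cells that received TNF (50 ng/mL) at the start and were taken at 24 h or at 72 h. RNA was hybridized to Affymetrix mouse gene arrays, and the deposited values are log2 signals. The replicates are described as biological, and whether same-numbered cultures came from the same embryos is not stated. With 2 or 3 arrays in a group, precision is limited by their number.

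TNF binds its receptors on neural cells and activates the kinase IKK, which marks the inhibitory IκB proteins for degradation and releases NF-κB into the nucleus. NF-κB then induces chemokines, acute phase genes and also the genes of its own inhibitors, such as *Nfkbia* and *Nfkbie*, which form a negative feedback. An inflammatory stimulus can also raise the genes of antioxidant and detoxifying enzymes, many of them targets of the transcription factor NRF2. A gene can therefore respond early and return, respond late, or be held back from a rise that untreated cells go through as they differentiate.

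The TNF effect differed between 72 h and 24 h for few probe sets. In a limma fit over all 26 arrays, 10 of 35556 probe sets had a q-value under 0.05, which is 0.0281%. The effect was larger at 72 h for 2 of them (0.00562%) and smaller for 8 (0.0225%). Of the 10, 9 carried a symbol, and these belong to *Mylk2*, *Cxcl10*, *Cnmd*, *Chgb*, *Ptger3*, *Nfkbie*, *Slc12a7* and a group of alpha class glutathione transferase genes. At an unadjusted p under 0.05 there were 974 probe sets (2.74% of all), 394 with a larger and 580 with a smaller effect at 72 h. This share is below the 0.05 that the cutoff passes when no effect differs. Unadjusted p values of the difference are therefore given below as descriptions only. With each of the 11 arrays left out in turn, only *Mylk2* of the called members always kept its call. Both glutathione transferase sets lost theirs in 1 of 11 such fits. The call was lost in 7 fits for *Nfkbie* and *Cnmd*, 8 for *Ptger3* and 9 for *Slc12a7*, *Cxcl10* and *Chgb*. All these differences kept their sign. In a fit of only the 11 arrays, *Cxcl10*, *Ptger3*, *Slc12a7* and both glutathione transferase sets were not called, and after cyclic loess between arrays *Slc12a7* and *Ptger3* were not. The median difference over all probe sets was −0.025, and 45.6% of members had a difference above 0. The standard error (SE) of a difference had a median of 0.228, against 0.152 for a TNF effect at 24 h and 0.17 for one at 72 h.

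Each single time gave far more calls than their difference. At 24 h, 307 probe sets (0.863%) had a called TNF effect, 223 higher and 84 lower with TNF. With the replicate number as a block, which the arrays of 24 h allow, these counts were 388 and 198. At 72 h, 409 probe sets (1.15%) had a called effect, 212 higher and 197 lower. Among members, 206 were higher with TNF at 24 h and 184 at 72 h, and 105 were called at both times, 51% of the first and 57.1% of the second. Of those lower with TNF, 81 at 24 h and 177 at 72 h, 26 were shared, 32.1% and 14.7% of each. No member was called in opposite directions at the 2 times. A call at one time and not at the other rarely meant a called difference. Of the 101 members called higher at 24 h and not at 72 h, 3 had one, and of the 79 called higher at 72 h and not at 24 h, 0 had one by q-value. For members called lower with TNF, this was 0 of 55 and 3 of 151.

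**Figure D1:**
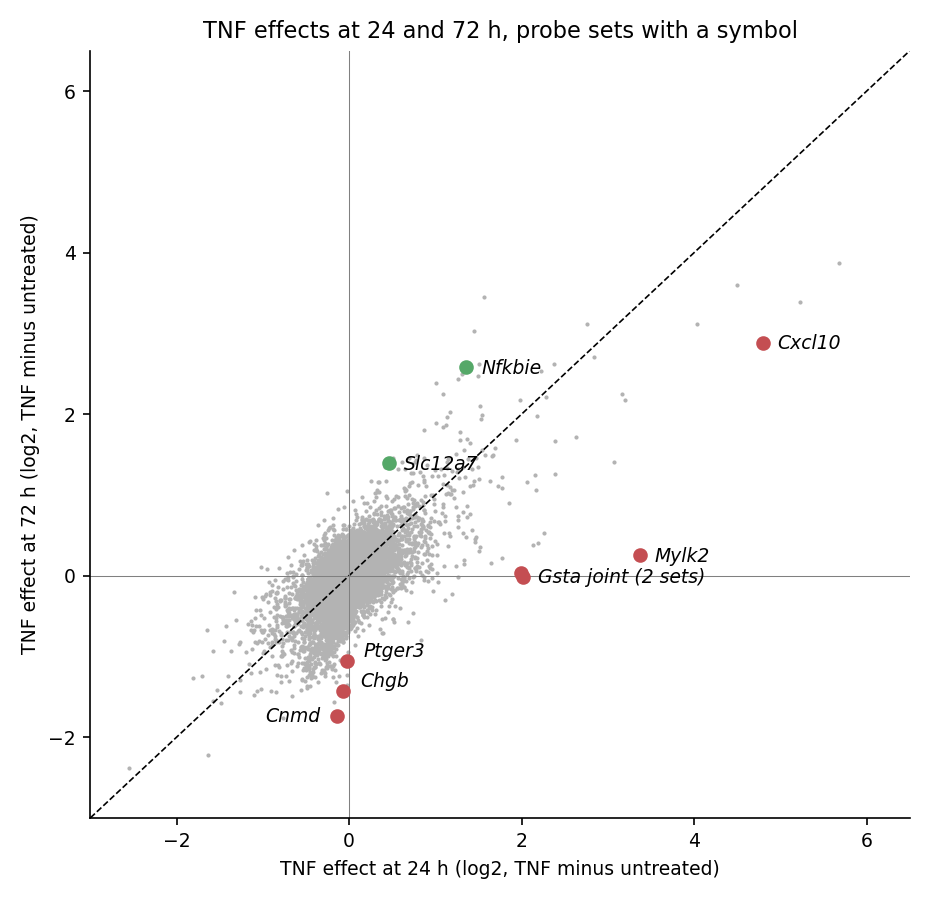
TNF effect at 24 h (x axis) against TNF effect at 72 h (y axis), both as log2 TNF-treated minus untreated, for the 23410 probe sets with a symbol; points on the dashed line have the same effect at both times. Named points are the 9 members with a q-value under 0.05 for the difference, red for a smaller and green for a larger effect at 72 h; *Mylk2* and the glutathione transferase sets lie near 0 at 72 h, and *Cnmd*, *Chgb* and *Ptger3* near 0 at 24 h.

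The difference can be written as the change from 24 to 72 h under TNF minus the change over the same time in untreated cells. Under TNF, 563 probe sets changed between 24 and 72 h (1.58%), 376 higher and 187 lower at 72 h. In untreated cells, 443 changed (1.25%), 333 higher and 110 lower. The called genes fell into 3 patterns by which of these arms moved. *Mylk2* and the glutathione transferases fell under TNF after a peak, *Cnmd*, *Chgb*, *Ptger3* and *Cxcl10* rose in untreated cells by more than with TNF, and *Nfkbie* and *Slc12a7* rose under TNF while the change in untreated cells did not pass the test.

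**Figure D2:**
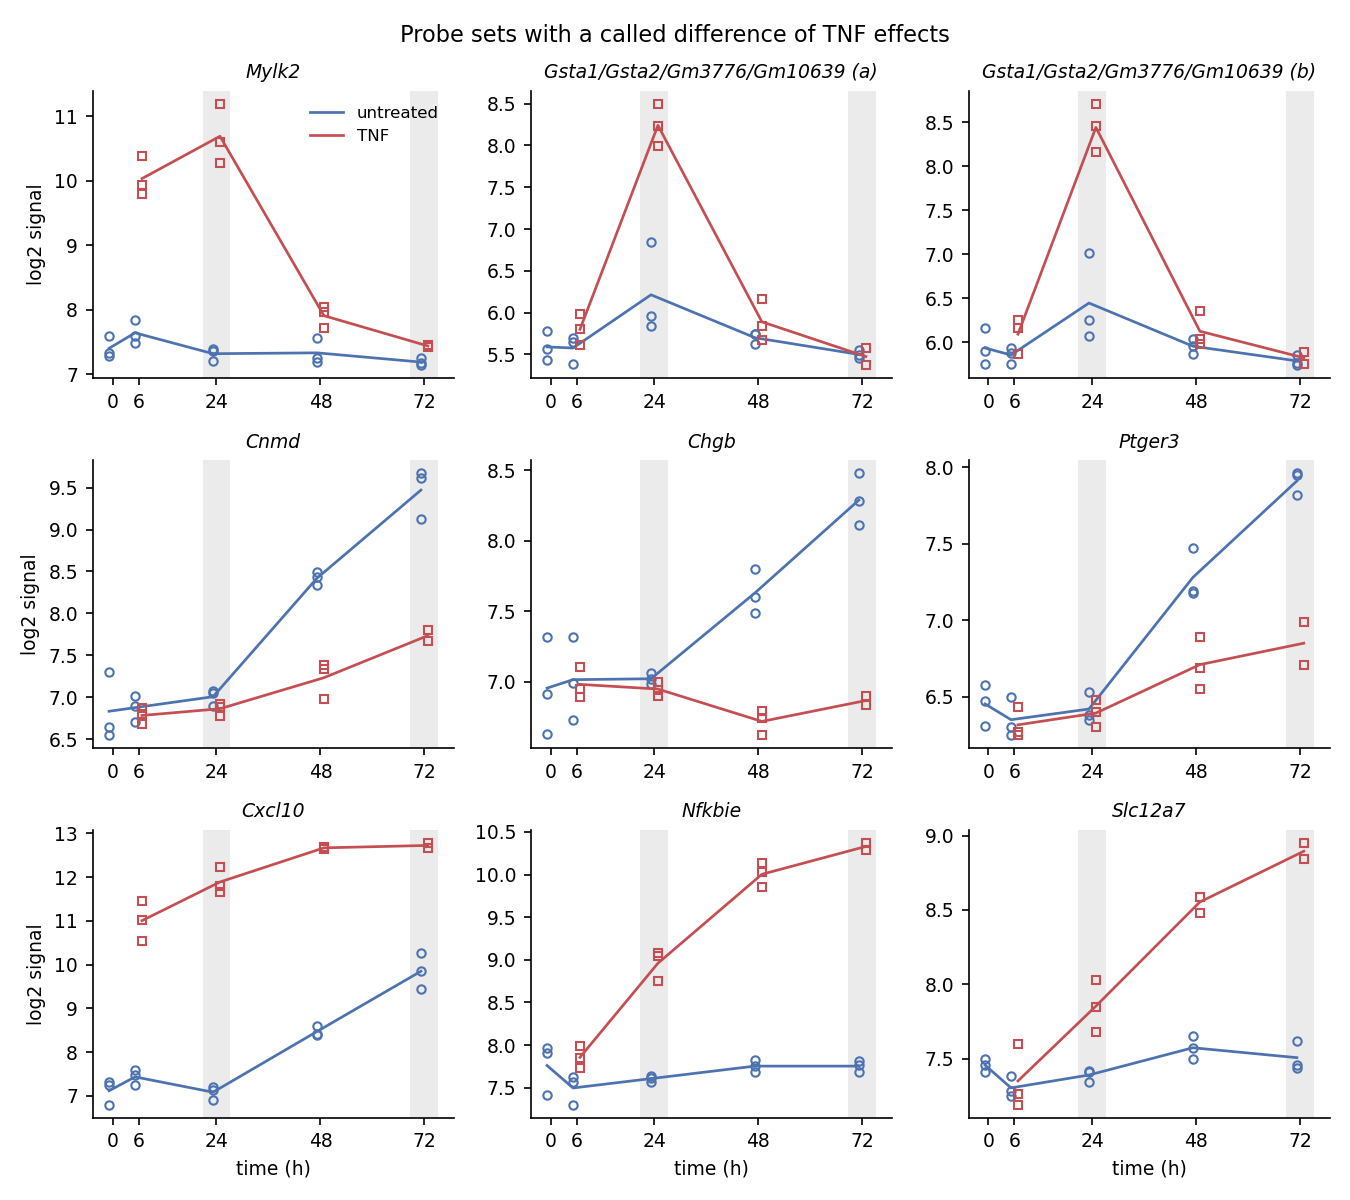
Log2 signal (y axis) against time of differentiation in hours (x axis) for the 9 members with a called difference, 1 panel per probe set, with arrays as open symbols and group means as lines (blue, untreated; red, TNF). Grey bands mark the times compared; the top row falls under TNF between 24 and 72 h, the middle row and *Cxcl10* rise in untreated cells, and *Nfkbie* and *Slc12a7* rise under TNF.

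*Mylk2*, which encodes the myosin light chain kinase of skeletal muscle, had the largest difference among members with a q-value under 0.05. At 24 h its log2 signal was 7.39, 7.36 and 7.21 in untreated cells and 10.28, 11.20 and 10.60 with TNF. At 72 h it was 7.26, 7.17 and 7.14 in untreated cells and 7.43 and 7.45 with TNF. The groups were apart by about 3 units at 24 h, while at 72 h both TNF arrays lay slightly above the untreated ones and close to them. The TNF effect was 3.37 ± 0.183 (SE) at 24 h, a factor of 10.4 (q-value 4.87e-10), and 0.25 ± 0.205 at 72 h (q-value 0.842). The difference was −3.12 ± 0.275 (q-value 1.09e-05). The gene was already induced at 6 h, with an effect of 2.39 (q-value 2.12e-07), and was at 0.58 at 48 h (q-value 0.217). Under TNF it fell by 3.26 from 24 to 72 h, whereas the change in untreated cells was −0.13. *Mylk2* kept its call without any single one of the 11 arrays, with differences from −3.33 to −2.87. The list of contractile and SRF target genes, which does not hold *Mylk2*, had 0 of 17 called differences by q-value, 0 at an unadjusted p under 0.05, and a median of −0.08.

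The other members with this course were 2 probe sets assigned jointly to *Gsta1*, *Gsta2*, *Gm3776* and *Gm10639*, which encode alpha class glutathione transferases that conjugate glutathione to reactive compounds. Their signal cannot be attributed to one of these genes, and the sets are not independent of each other. For the first set, the signal at 24 h was 5.96, 6.84 and 5.84 in untreated cells and 8.23, 8.50 and 7.99 with TNF. At 72 h it was 5.46, 5.55 and 5.49 in untreated cells and 5.37 and 5.58 with TNF. All TNF arrays lay above the untreated ones at 24 h, where 1 untreated array stood above the other two, and the groups overlapped at 72 h. The TNF effect was 2.02 ± 0.197 at 24 h (q-value 2.89e-06) and −0.02 ± 0.22 at 72 h (q-value 0.986), and the difference was −2.05 ± 0.295 (q-value 0.00802). The effect at 6 h was 0.22 (q-value 0.894), whereas that of *Mylk2* was already called at 6 h, and for both the highest effect was at 24 h. The second set had a difference of −1.96 ± 0.28 (q-value 0.00802), with effects of 1.99 at 24 h and 0.03 at 72 h. Of the 4 probe sets with these symbols, all 4 had a negative difference, and the other two did not pass, at −1.0 (q-value 0.0655) and −0.83 (q-value 0.418). Without the first TNF array of 72 h, the q-values of both called sets were 0.178, with differences of −1.94 and −1.89. They were 0.122 in a fit of only the 11 arrays compared.

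The antioxidant and NRF2 target list showed values of the same sign, although none of its 15 measured genes passed the test for the difference and 5 had an unadjusted p under 0.05. Its median difference was −0.44, and 14 of 15 genes were below 0, beside a median of −0.023 over all members. The median TNF effect of the list was 0.44 at 24 h, with 3 genes called higher, and −0.02 at 72 h, with none called in either direction. Of all 35556 probe sets, 223 were called higher at 24 h. Under TNF, 4 of its 15 genes fell from 24 to 72 h, beside 187 of all 35556 probe sets. They were *Nqo1* (a quinone reductase) by 2.02, *Slc7a11* (the cystine-glutamate antiporter) by 2.76, *Gsta3* by 1.18 and *Srxn1* (sulfiredoxin) by 1.20. In untreated cells none of the 15 passed the test. In limma the differences were −1.41 ± 0.367 for *Nqo1* (unadjusted p = 0.000977) and −1.10 ± 0.277 for *Gsta3* (unadjusted p = 0.000719). For *Slc7a11* and *Srxn1* they were −1.63 ± 0.55 and −0.45 ± 0.404. *Slc7a11* had signals of 11.48, 11.66 and 11.44 in untreated cells and 12.71, 12.48 and 11.88 with TNF at 24 h. At 72 h they were 10.61, 9.45 and 11.12 in untreated cells and 9.46 and 9.73 with TNF. The TNF arrays were all above the untreated ones at 24 h and overlapped them at 72 h, where the untreated arrays spread over more than 1 unit. *Nfe2l2*, the gene of NRF2 itself, had a difference of −0.16 ± 0.197.

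**Figure D3:**
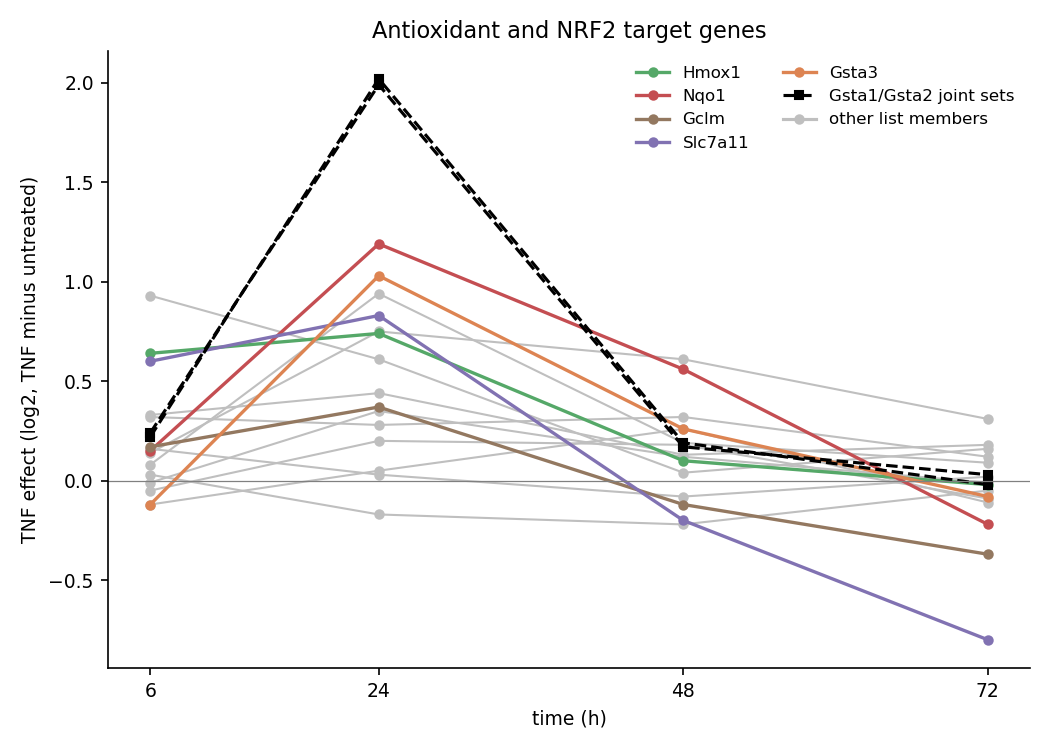
TNF effect (y axis, log2 TNF-treated minus untreated) against time in hours (x axis) for the 15 measured antioxidant and NRF2 target genes, with the 5 of unadjusted p under 0.05 for the difference in colour, and for the 2 called glutathione transferase probe sets (black, dashed). The effects of *Nqo1*, *Gsta3* and the joint sets are highest at 24 h and at or below 0.03 at 72 h.

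*Cnmd*, *Chgb* and *Ptger3* showed no TNF effect at 24 h that passed the test and were lower with TNF at 72 h, when untreated cells had risen. *Cnmd* encodes chondromodulin, a glycoprotein of cartilage matrix known to inhibit vessel growth. Its signal at 24 h was 7.05, 6.90 and 7.07 in untreated cells and 6.92, 6.89 and 6.78 with TNF. After 72 h it was 9.62, 9.12 and 9.67 in untreated cells and 7.67 and 7.80 with TNF. The 24 h values lay within 0.3 of each other, and at 72 h the lowest untreated array stood more than 1 unit above the TNF arrays. Untreated cells rose by 2.46 ± 0.165 (q-value 4.01e-08), a factor of 5.51, and TNF-treated cells by 0.87 ± 0.185 (q-value 0.0149). The TNF effect was −0.14 ± 0.165 at 24 h, −1.19 at 48 h (q-value 0.000228) and −1.74 ± 0.185 at 72 h (q-value 9.13e-06), and the difference was −1.59 ± 0.248 (q-value 0.0179).

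*Chgb* encodes chromogranin B, a protein of secretory granules in neurons and endocrine cells. At 24 h its signal was 7.06, 6.98 and 7.02 in untreated cells and 7.0, 6.94 and 6.90 with TNF. The 72 h values were 8.28, 8.11 and 8.48 in untreated cells and 6.83 and 6.90 with TNF. The TNF arrays of 72 h were at the level of all arrays of 24 h, and the untreated ones were above them by more than 1 unit. Untreated cells rose by 1.27 (q-value 6.77e-05), the change under TNF was −0.09 (q-value 0.762), and the difference was −1.36 ± 0.224 (q-value 0.0235). *Ptger3*, which encodes the EP3 receptor for prostaglandin E2, had signals of 6.38, 6.35 and 6.53 in untreated cells and 6.48, 6.40 and 6.30 with TNF at 24 h. At 72 h these were 7.96, 7.95 and 7.82 in untreated cells and 6.71 and 6.99 with TNF. The groups overlapped at 24 h and were apart at 72 h. Untreated cells rose by 1.49 (q-value 1.93e-07), TNF-treated cells changed by 0.46 with a q-value of 0.0683, and the difference was −1.03 ± 0.169 (q-value 0.0235). At 48 h the effects of *Chgb* (−0.91, q-value 0.00152) and *Ptger3* (−0.57, q-value 0.0108) were called lower with TNF, from arrays that do not enter the difference.

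Beside these, *Pi15*, a peptidase inhibitor, had the same course without a called difference, at −0.93 ± 0.201 (q-value 0.304). Its signal at 72 h was 6.27, 6.43 and 6.33 in untreated cells and 5.11 and 5.15 with TNF, and at 24 h the groups touched at 5.40. The astrocyte markers as a list did not have this course. Of 32 measured markers none had a called difference or an unadjusted p under 0.05, and their median difference was 0.08, with 21 above 0. Their median TNF effect was −0.31 at 24 h, when 4 of the 32 were called lower, and −0.26 at 72 h, when 2 were, and none was called higher. Of all 35556 probe sets, 84 and 197 were called lower at these times. *Gfap* encodes an intermediate filament protein used as an astrocyte marker. Its signals were 13.10 to 13.52 and 13.34 to 13.73 in untreated cells at 24 and 72 h, and 12.44 to 12.96 and 12.54 to 12.78 with TNF. Neither of its TNF effects passed (q-values 0.862 and 0.195), and its difference was −0.32 ± 0.393. *Aldh1a1*, a retinaldehyde dehydrogenase of astrocytes, had TNF effects of −1.63 at 24 h (q-value 0.0702) and −2.23 at 72 h (q-value 0.0175), the second called. Its difference was −0.59 ± 0.616.

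*Cxcl10*, a chemokine that attracts T cells through the receptor CXCR3, stayed induced at 72 h, but its TNF effect was smaller there. Its promoter is shown because, of the 6 called genes whose promoters were searched, it alone held any of the motifs. No sequence was available for *Mylk2*, and the glutathione transferase genes were not searched. The promoter of *Nfkbie*, the NF-κB inhibitor whose effect moved the other way, is shown beside that of *Cxcl10*. Each runs 5′ to 3′ on the gene's strand from 250 bases before to 50 after the transcription start, from RefSeq on GRCm38.p6, with *Cxcl10* at chr5:92348840-92349139 on the minus strand and *Nfkbie* at chr17:45555450-45555749 on the plus strand. Capitals mark the matches.
Cxcl10: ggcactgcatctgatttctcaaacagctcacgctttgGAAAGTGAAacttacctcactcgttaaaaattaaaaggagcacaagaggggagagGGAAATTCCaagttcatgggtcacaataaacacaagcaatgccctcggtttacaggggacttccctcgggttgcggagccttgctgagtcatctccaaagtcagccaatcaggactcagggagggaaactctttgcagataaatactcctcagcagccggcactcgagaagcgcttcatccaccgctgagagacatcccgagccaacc
Nfkbie: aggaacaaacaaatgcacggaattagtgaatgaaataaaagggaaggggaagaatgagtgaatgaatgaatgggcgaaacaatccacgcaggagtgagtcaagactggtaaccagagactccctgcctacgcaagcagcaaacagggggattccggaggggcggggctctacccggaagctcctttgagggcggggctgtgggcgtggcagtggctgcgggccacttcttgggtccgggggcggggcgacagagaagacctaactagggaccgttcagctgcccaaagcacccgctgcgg

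The motifs were GGNNTTTCC (κB type), GAAANNGAA (interferon response type) and TTCNNNGAA (STAT type), each read on both strands. They were found in 5.83%, 8.53% and 8.33% of 32544 promoters of the same length. In *Cxcl10* the interferon type matched at bases 38 to 46 and the κB type at bases 93 to 101, counted from the 5′ end of the printed sequence, and the matches did not overlap. The other promoters, of *Nfkbie*, *Slc12a7*, *Cnmd*, *Chgb* and *Ptger3*, held none of these letters. A match describes the sequence and not a bound site, and no match says only that these letters are absent from this window. Other forms of a κB site were not searched, in *Nfkbie* or in *Cxcl10*, so these promoters cannot be set against each other by their κB sites.

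At 24 h the *Cxcl10* signal was 7.21, 6.91 and 7.14 in untreated cells and 11.79, 11.65 and 12.23 with TNF. By 72 h it had reached 9.44, 10.26 and 9.85 in untreated cells and 12.67 and 12.78 with TNF. At both times all TNF arrays were above all untreated ones, and the TNF arrays of 72 h were the highest of all. Untreated cells rose by 2.76 ± 0.21 (q-value 1.93e-07), a factor of 6.8, while TNF-treated cells changed by 0.84 ± 0.235 (q-value 0.0742). The TNF effect was 4.80 ± 0.21 at 24 h, a factor of 27.9, and 2.88 ± 0.235 at 72 h, a factor of 7.35, and the difference was −1.92 ± 0.315 (q-value 0.0235). The smaller effect thus had a higher level in untreated cells beside it and no lower level with TNF.

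Of 18 measured chemokines, *Cxcl10* alone had a called difference, and the list median was −0.23 with 14 below 0. *Ccl2*, which attracts monocytes, had signals of 7.27, 7.18 and 7.41 in untreated cells and 12.33, 13.01 and 12.21 with TNF at 24 h. At 72 h they were 8.63, 9.47 and 8.86 in untreated cells and 12.38 and 12.37 with TNF. Untreated cells rose by 1.70 (q-value 0.0154), the change under TNF was −0.14 (q-value 0.791), and the difference was −1.84 ± 0.53 with an unadjusted p of 0.00237 in limma and a q-value of 1. *Ccl7*, a neighbour of *Ccl2* in function, had a difference of −1.03 ± 0.525, with a change of −0.83 under TNF (q-value 0.365) and 0.20 in untreated cells.

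The acute phase and reactive astrocyte genes had a list median of −0.32, with 21 of 27 below 0, 0 called by q-value and 5 at an unadjusted p under 0.05. This median was −0.51 without the second TNF array of 72 h and −0.49 without the second untreated array of 24 h. In untreated cells 6 of the 27 rose from 24 to 72 h, beside 333 of all 35556 probe sets. Among the 6 were *Lcn2* (lipocalin 2, an iron-binding acute phase protein) by 2.69 and *Serpina3n* (a protease inhibitor of reactive astrocytes) by 3.18. *Cp* (ceruloplasmin) rose by 1.31 and *Srgn* (serglycin) by 1.52. *Lcn2* had signals of 6.87, 6.36 and 6.63 in untreated cells and 12.08, 12.79 and 12.02 with TNF at 24 h. At 72 h they were 9.39, 8.49 and 10.05 in untreated cells and 13.37 and 12.99 with TNF, the highest of the gene. Its TNF effect was 5.68 ± 0.348 at 24 h and 3.87 ± 0.389 at 72 h, both called, and the difference was −1.81 ± 0.522 (unadjusted p = 0.00242 in limma, q-value 1). *Ptgs2*, the inducible cyclooxygenase that makes prostaglandins, moved in the other arm. Its signal was 9.54, 10.03 and 8.76 with TNF at 24 h and 7.34 and 7.29 at 72 h, against 6.65 to 7.84 in untreated cells of both times. Under TNF it fell by 2.13 (q-value 0.00843), the change in untreated cells was −0.34, and the difference was −1.79 ± 0.561 (unadjusted p = 0.00463 in limma, q-value 1). *Tslp*, a cytokine of epithelial and stromal cells, had a similar course, with an effect of 2.26 at 24 h and 0.53 at 72 h and a difference of −1.73 ± 0.399 (q-value 0.491).

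*Nfkbie* and *Slc12a7* had a called difference above 0. *Nfkbie* encodes IκBε, which binds NF-κB dimers and keeps them out of the nucleus, and NF-κB induces the gene in turn. At 24 h its signal was 7.64, 7.57 and 7.61 in untreated cells and 8.75, 9.08 and 9.05 with TNF. At 72 h it was 7.77, 7.81 and 7.68 in untreated cells and 10.37 and 10.29 with TNF. Untreated arrays stayed within 0.3 of each other over both times, and the TNF arrays of 72 h were more than 1 unit above those of 24 h. The TNF effect was 0.36 at 6 h (q-value 0.65), 1.36 ± 0.128 at 24 h, 2.25 at 48 h and 2.58 ± 0.143 at 72 h, a factor of 5.97, with the last 3 called. The difference was 1.22 ± 0.192 (q-value 0.0179). *Slc12a7* encodes the potassium-chloride cotransporter KCC4, which moves these ions out of the cell. Its signal at 24 h was 7.41, 7.42 and 7.34 in untreated cells and 7.68, 8.03 and 7.85 with TNF. At 72 h it was 7.62, 7.44 and 7.46 in untreated cells and 8.95 and 8.84 with TNF. The TNF arrays were above the untreated ones at both times and higher at 72 h. The TNF effect was 0.46 ± 0.102 at 24 h (q-value 0.028) and 1.39 ± 0.114 at 72 h (q-value 3.04e-07), and the difference was 0.92 ± 0.153 (q-value 0.0235).

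Among the other inhibitors of NF-κB, *Nfkbia*, *Tnfaip3* and *Tnip1* were called higher with TNF at both times, and none had a called difference by q-value. *Nfkbib* (effects of 0.46 and 0.53) and *Nfkbid* (0.12 and 0.07) were called at neither time. *Nfkbia* (IκBα) had signals of 9.78, 10.12 and 10.04 in untreated cells and 12.23, 12.57 and 12.27 with TNF at 24 h. At 72 h they were 9.71, 9.98 and 9.82 in untreated cells and 12.43 and 12.47 with TNF. The effects of 2.38 and 2.62 gave a difference of 0.24 ± 0.214 (q-value 1). *Tnfaip3*, which encodes the deubiquitinase A20, had effects of 2.23 and 2.54 and a difference of 0.31 ± 0.242. *Tnip1*, a partner of A20, had a difference of 0.47 ± 0.202 (unadjusted p = 0.0313 in limma). Of 14 measured NF-κB subunits and inhibitors, 1 had a called difference, 9 were above 0 and the median was 0.07. With TNF, 7 of the 14 were called higher at 24 h and 6 at 72 h, beside 223 and 212 of all 35556 probe sets. *Relb* (1.36 and 1.69) and *Nfkb2* (1.14 and 1.45) were among those called. *Rela* had a difference of 0.06 ± 0.137. The TNF receptors, adaptors and IKK genes had a median difference of −0.07 over 15 genes, none of them called by q-value and 1 with an unadjusted p under 0.05, *Ikbkg* at −0.54 ± 0.193.

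Further genes, without a called difference, had a TNF effect that was larger at 72 h, and of these *C1s1* and *Slc39a4* were near the threshold. *C1s1*, the gene of a complement protease, had signals of 5.02, 5.26 and 4.87 in untreated cells and 6.00, 7.31 and 6.51 with TNF at 24 h. At 72 h they were 5.64, 6.11 and 5.64 in untreated cells and 9.31 and 9.18 with TNF. The TNF arrays were above the untreated ones at both times, spread over more than 1 unit at 24 h, and were highest at 72 h. The difference was 1.89 ± 0.351 with a q-value of 0.0768. *C1ra*, its partner protease, had effects of 0.57 at 24 h and 1.32 at 72 h, both called, and a difference of 0.75 ± 0.199. Over the 14 measured complement genes the median difference was 0.05, with 8 above 0 and 0 called by q-value. *Slc39a4*, a zinc importer, had a difference of 1.37 ± 0.258 (q-value 0.0834, and 0.043 after cyclic loess), and its TNF arrays were at 8.15, 7.91 and 8.41 at 24 h and 9.80 and 10.05 at 72 h against 6.94 to 7.60 in untreated cells. *Madcam1*, an adhesion molecule for lymphocytes, had effects of 1.26 at 24 h and 2.44 at 72 h, both called, and a difference of 1.18 ± 0.315 (unadjusted p = 0.00125 in limma).

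Interferon-stimulated genes were split. The median of 38 measured genes was −0.10, 15 were above 0, and none was called by q-value, while 3 had an unadjusted p under 0.05 above 0 and 1 below 0. Those above 0 were *Ifit3* at 0.93 ± 0.321, *Usp18* at 0.82 ± 0.231 and *Oasl2* at 0.79 ± 0.176, and the one below was *Gbp7* at −0.69. *Oasl2*, a relative of the antiviral 2′-5′ oligoadenylate synthetases, had signals of 7.65, 7.45 and 7.53 with TNF at 24 h and 8.64 and 8.41 at 72 h, against 6.81 to 7.21 in untreated cells of both times. *Ifit3* had signals of 8.21, 7.98 and 8.31 with TNF at 24 h, below the untreated 8.88, 8.96 and 8.77, and 9.34 and 9.32 at 72 h, above the untreated 9.0, 9.10 and 9.20. Neither of its TNF effects was called (q-values 0.208 and 0.905). Of 13 genes of MHC class I, peptide loading and the immunoproteasome, 7 were called higher with TNF at 24 h and 8 at 72 h. Of all 35556 probe sets, 223 and 212 were. None of the 13 had a called difference by q-value, 1 had an unadjusted p under 0.05, and the median difference was 0.09.

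Below 0, the named gene next to the threshold was *Adh7*. It encodes an alcohol dehydrogenase that also oxidizes retinol, and had signals of 7.24, 6.86 and 6.83 in untreated cells and 9.25, 8.55 and 8.44 with TNF at 24 h. At 72 h they were 6.51, 6.54 and 6.39 in untreated cells and 6.62 and 6.78 with TNF. The groups were apart by more than 1 unit at 24 h and by 0.1 or less between their nearest arrays at 72 h. The difference was −1.55 ± 0.277 with a q-value of 0.0555, and −1.46 with a q-value of 0.0215 after cyclic loess between arrays. *Aldh3a1*, an aldehyde dehydrogenase, had effects of 1.46 at 24 h and 0.46 at 72 h and a difference of −1.0 ± 0.216 (q-value 0.304), and *Ahnak2*, a large scaffold protein, had effects of 0.97 and 0.09 and a difference of −0.88 ± 0.188 (q-value 0.304). *Adh7* and the last called member, *Slc12a7*, stood on either side of the threshold with q-values of 0.0555 and 0.0235.

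**Figure D4:**
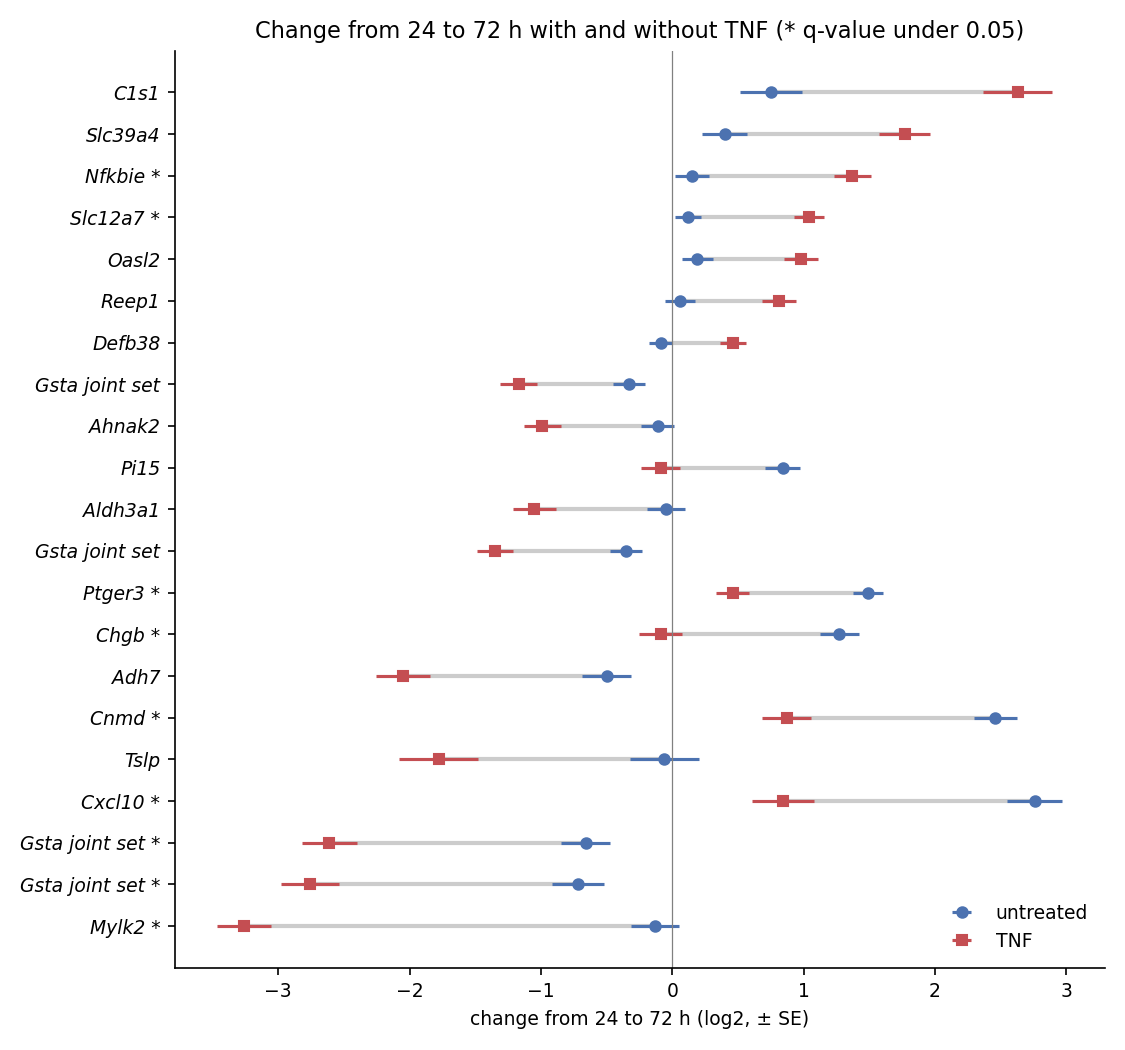
Change from 24 to 72 h (x axis, log2, bars are SE) in untreated (blue) and TNF-treated cells (red) for the 21 members with the lowest p for the difference, ordered by the difference; a star marks a q-value under 0.05. *Mylk2*, the joint *Gsta* sets, *Adh7* and *Tslp* lie far to the left under TNF, *Cxcl10*, *Cnmd*, *Chgb* and *Ptger3* lie to the right in untreated cells, and the top rows lie to the right under TNF.

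Probe sets that responded to TNF at other times were followed in arrays that played no part in choosing them. Of the 103 members called higher with TNF at 6 h, 77 had a smaller effect at 72 h than at 24 h (74.8%) and 26 a larger one, and their median difference was −0.21. Their median TNF effect was 0.76 at 24 h and 0.44 at 72 h. With each array left out in turn the number with a smaller effect was 75 to 81. Of the 241 members called higher at 48 h, 94 had a smaller and 147 a larger effect at 72 h (39% below 0), with a median difference of 0.11. Over all members, 45.6% of differences were above 0. Early induced members therefore had more values below 0 and those called at 48 h more values above 0 than the array as a whole, as a description without a test. The 92 members called lower at 48 h were split, 48 below and 44 above 0.

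Over 35 gene lists with 605 measured genes, *Nfkbie* and *Cxcl10* were the called members, and 22 list medians were below 0. The list medians ran from −0.44 for antioxidant genes to 0.30 for the Notch pathway, and the 5th and 95th percentiles of all members were −0.39 and 0.31. Of 16 Notch pathway genes 13 were above 0, none was called by q-value, and the TNF effect had a median of −0.07 at 24 h and 0.27 at 72 h. *Dll1*, a Notch ligand, had 0.95 ± 0.67. Its replicate 2 arrays were the lowest of untreated and TNF-treated cells at 24 h (8.94 and 8.81) and of untreated cells at 72 h (8.07). With TNF at 72 h its signals were 9.60 and 9.69. *Notch3* had 0.46 ± 0.207 (unadjusted p = 0.0385 in limma), and the target genes *Hes1* and *Hes5* had 0.21 ± 0.277 and 0.36 ± 0.613. Of 15 circadian clock genes 13 were above 0 with a median of 0.22, but *Clock* had −0.76 ± 0.24 (unadjusted p = 0.00457 in limma) and was the one called lower with TNF at 72 h, at −0.94 (q-value 0.00948). The signal of *Clock* was 9.86 and 9.94 with TNF at 72 h and 10.43 to 10.94 on the 9 other arrays.

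**Figure D5:**
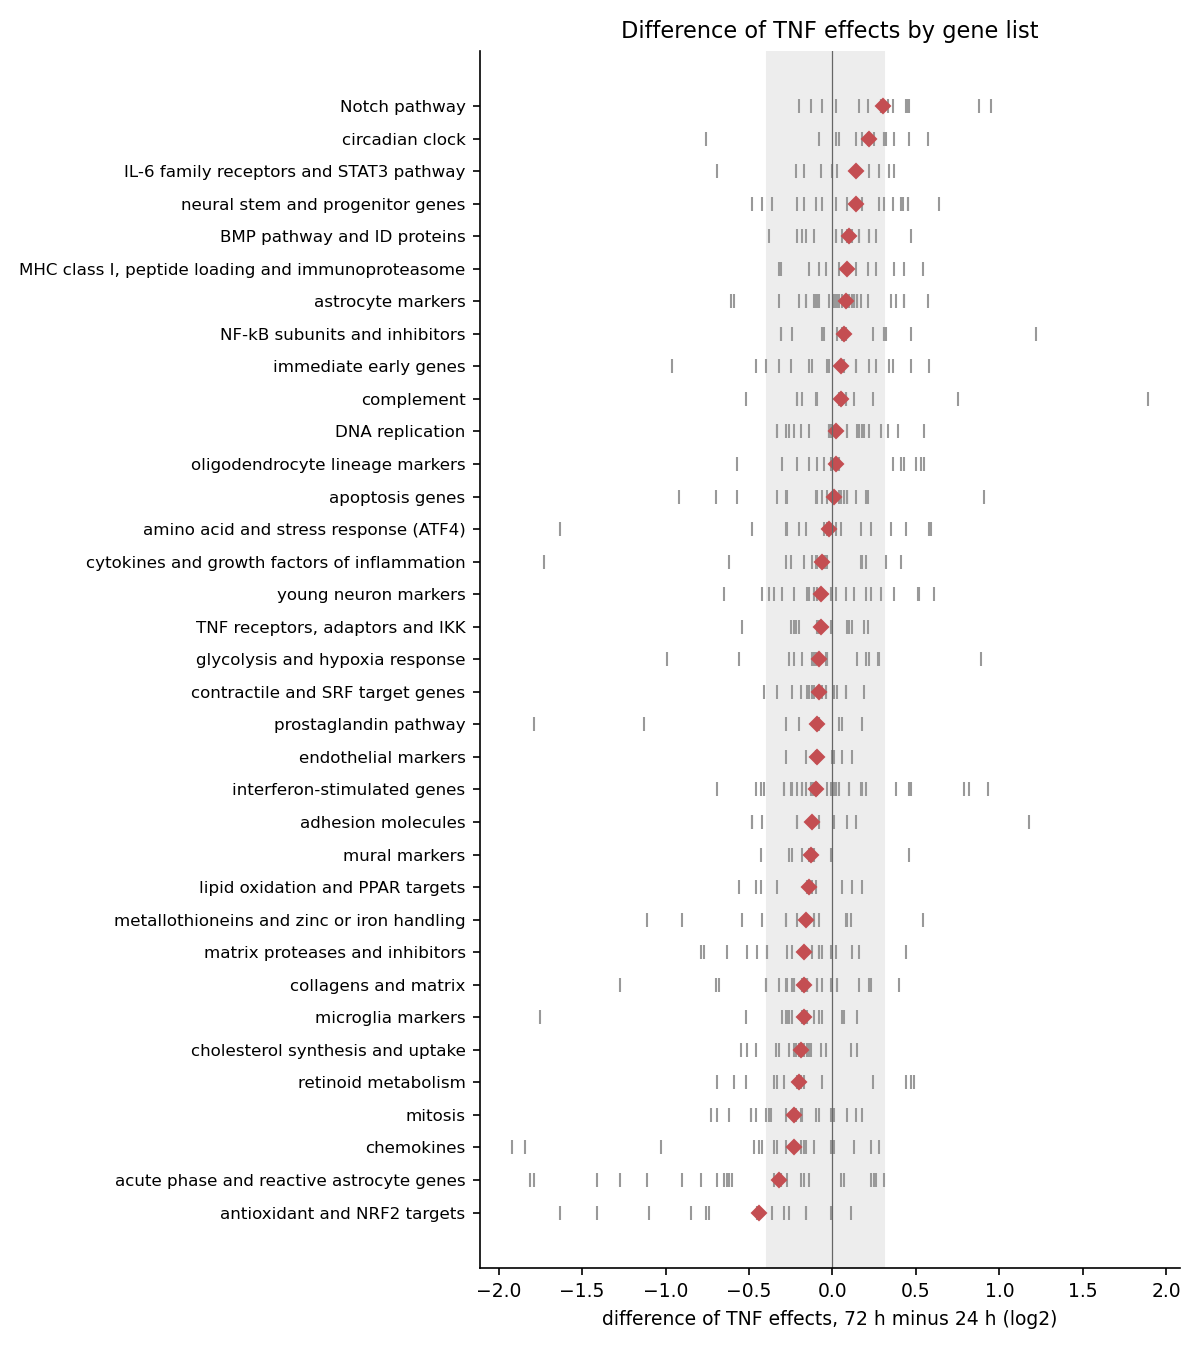
Difference of TNF effects, 72 h minus 24 h (x axis, log2), for the measured genes of 35 lists (grey ticks, 1 per gene) with the list median (red diamond). The shaded band is the 5th to 95th percentile of all probe sets with a symbol (−0.39 to 0.31). Most medians lie inside the band near 0, with antioxidant genes lowest at −0.44 and the Notch pathway highest at 0.30.

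Genes of cell division had wide errors in the fit, which pools the spread of all groups, those at 0 and 6 h included. *Mki67*, a marker of cycling cells, had a difference of −0.40 ± 1.64 and *Tpx2*, a spindle protein, −0.73 ± 1.49. The standard deviation of *Mki67* was 2.13 to 2.50 in the groups at 0 and 6 h and 0.02 to 0.79 in the groups compared. For *Tpx2* it was 2.01 to 2.25 and 0.06 to 0.54. Replicate 2 arrays of *Mki67* were the highest of untreated and TNF-treated cells at 24 h (8.08 and 7.87) and of untreated cells at 72 h (7.91). Those of *Tpx2* were highest in the same groups (7.90, 8.47 and 7.87). With TNF at 72 h the signals were 6.40 and 6.43 for *Mki67*, and 7.07 and 7.15 for *Tpx2*. The part of this replicate pattern in the differences was not tested. The mitosis list had a median of −0.23 over 21 genes with 17 below 0, and the DNA replication list 0.02 over 23. In neither list was a gene called by q-value or at an unadjusted p under 0.05, in tests that used the same pooled errors. Of 20 genes of cholesterol synthesis and uptake, 18 were below 0 with a median of −0.19, and again none was called by q-value or at an unadjusted p under 0.05. *Prom1* (CD133) and *Cd44*, surface markers of neural progenitors and glia, had −0.21 ± 0.338 and −0.48 ± 0.436. *Nr2e1* (TLX), a nuclear receptor of neural stem cells, had 0.64 ± 0.159 with an unadjusted p of 0.000669 in limma and a q-value of 0.88. Over 18 neural stem and progenitor genes the median difference was 0.14, with 11 above 0, 0 called by q-value and 2 at an unadjusted p under 0.05, *Nr2e1* and the transcription factor *Sox1* at 0.42 ± 0.138. In the JAK-STAT and BMP pathways, *Stat3* had 0.03 ± 0.144, *Socs3* −0.22 ± 0.275, *Id1* 0.26 ± 0.231 and *Id3* 0.02 ± 0.217. The proneural factor *Neurod1* had 0.51 ± 0.315, and the pattern receptor *Tlr2*, induced at both times, had −0.14 ± 0.298.

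Markers of other cell types were read beside these results. In bulk samples, fewer cells of a type and less RNA per cell cannot be told apart. The mean log2 signal of 18 microglia markers was 6.92 to 7.14 with TNF at 24 h, above 6.84 to 6.86 in untreated cells, and 6.74 to 6.77 with TNF at 72 h, below 6.80 to 6.85 in untreated cells. Of these, 15 of 18 had a difference below 0, with a median of −0.17, and *Cd68*, a lysosomal protein of phagocytes, had −1.75 ± 0.616 (unadjusted p = 0.0101 in limma). The defining markers *P2ry12*, *Itgam* and *Aif1* had mean signals of 5.79, 5.72 and 6.38, at percentiles 16.4, 15.6 and 25.3 of all probe sets. Endothelial markers were at 6.70 to 6.90 and mural markers at 7.74 to 8.04 over all 4 groups. The part of other cell types in the results was not tested. The mean signal of long minus short genes, a measure that moves with RNA quality, was lower with TNF at both times on average, 1.088 to 1.217 against 1.203 to 1.279 in untreated cells at 24 h and 1.128 to 1.142 against 1.229 to 1.243 at 72 h, and its part in the results was not tested either.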

How the data were processed

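Affymetrix mouse gene arrays measured RNA in 26 samples of 9 groups. The deposited log2 signals were made by the authors with RMA in the oligo package under R 3.3.1, with no version stated for oligo or RMA in what was read here, and were used as they stand, from 2.30 to 14.61. Of 35556 probe sets, 21789 carried 1 gene symbol, 1621 several and 12146 none. Between arrays, correlations over probe sets were 0.947 to 0.996.

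A limma 3.58.1 fit (lmFit and eBayes, R 4.3.3) on all 26 arrays with 1 mean per group gave 17 residual degrees of freedom. TNF effects, changes over time and their difference were contrasts of this fit, tested two-sided over all probe sets, and called at a q-value under 0.05, with q-values estimated by a spline smoother written for this purpose. The procedure was tested on simulated data. Same-numbered arrays at 24 h deviated together (correlations 0.585, 0.669 and 0.155), and this check, not a label, is the basis for reading the 24 h effect also with the replicate number as a block. At 72 h the correlations were 0.221 and 0.035.

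Genes were named when their difference was called, filled up to 10 in each direction by lowest p, and then from each list (up to 4 called genes, or otherwise the 1 gene of largest absolute difference) and from the genes the study names. Further list genes were named after their values were seen. Members and all 35 lists (654 genes, 605 measured, 2 matched by synonym) were chosen with earlier results of these data known. A gene with several probe sets was represented by that of highest mean signal. Promoters came from the RefSeq table on GRCm38.p6 for 6 of the 7 called genes of 1 symbol. Alternatives were other q-value methods and cutoffs, only the 11 arrays, cyclic loess, an intensity trend, array weights, the block, dim or multi-symbol probe sets left out, and each array left out in turn. The alternatives for probe sets chosen at 6 and 48 h were added after seeing the data.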

Additional observations from a re-analysis of the deposited data

Results flagged for a closer look

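The TNF effect differed between 72 h and 24 h, by the test of the difference itself, for 9 probe sets with a symbol. The effect was smaller at 72 h for *Mylk2* (−3.12), for both probe sets assigned jointly to *Gsta1*, *Gsta2*, *Gm3776* and *Gm10639* (−2.05 and −1.96), and for *Cxcl10* (−1.92). For *Cnmd* (−1.59), *Chgb* (−1.36) and *Ptger3* (−1.03) it was more negative at 72 h. For *Slc12a7* (0.92) and *Nfkbie* (1.22) it was larger. All values are log2 differences of TNF effects. Groups of 2 or 3 arrays are too small for a check of single outlying arrays.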

How the results depend on the processing

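The count of called differences, 2 larger and 8 smaller at 72 h, was the same with an intensity trend, with all 9 called members. Benjamini-Hochberg adjustment also gave these calls, but it is not a separate check. For the difference, the estimated share of probe sets without an effect was at its upper limit. The q-values then equal Benjamini-Hochberg values. Cyclic loess gave the same count with 7 of the 9, without *Slc12a7* (q-value 0.118) and *Ptger3* (0.101) and with *Adh7* (0.0215) and *Slc39a4* (0.043). The counts were 2 and 5 with only the 11 arrays, which kept 4 of the 9 (*Mylk2*, *Cnmd*, *Chgb* and *Nfkbie*), 55 and 97 with array weights (whose estimation stopped before it converged), 0 and 4 at a q-value under 0.01, 1 and 8 with an absolute difference of at least 1, and 5 smaller without the 40% dimmest probe sets. With each array left out it was 0 to 3 and 2 to 9. Leaving out arrays gave 132 to 221 higher and 37 to 89 lower for TNF at 24 h, and 80 to 204 and 16 to 195 at 72 h. It gave 70 to 428 and 18 to 235 for the change under TNF, and 174 to 322 and 29 to 108 in untreated cells. The lowest count of smaller effects, 2, came without TNF t72h replicate 1, where *Mylk2* was the one called member and both glutathione transferase sets were lost. All 6 other called genes were lost without control t24h replicates 1 or 2, TNF t24h replicate 1, TNF t72h replicate 1 or control t72h replicate 3. Without TNF t72h replicate 2, *Ptger3* was the one of these 6 that kept its call.

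With the replicate number as a block, 3 larger and 13 smaller differences were called, and all 9 called members were among them, with *Adh7* (q-value 0.0196), *C1s1* (0.0245), *Tslp* (0.0202) and *Ptgs2* (0.0202) added. The block gave 388 and 198 for TNF at 24 h, 563 and 616 at 72 h, 1181 and 791 for the change under TNF and 565 and 270 in untreated cells. Labels do not say that the numbers pair the arrays. Nor do they say whether TNF t72h replicate 2 belongs with control t72h replicate 2 or replicate 3. In the order of the samples, this TNF array directly follows control t72h replicate 3. The block placed it with replicate 2, where the correlation at 72 h was 0.035, and a block with it in replicate 3 was not run. Block counts and added calls that use the TNF arrays of 72 h depend on this placement. With the block and without TNF t72h replicate 2 the counts were 0 and 6, and 4 of the 9 remained. *Adh7* kept its added call there (0.0335), and *C1s1* (0.0606), *Tslp* (0.111) and *Ptgs2* (0.18) did not. In that setting the signs turned for *Tpx2* (0.32), *Cd36* (0.24), *Prom1* (0.03), *Mki67* (0.73) and *Stat3* (−0.03), none of which passed the test. *Id3* was −0.01 with loess. Over single arrays left out, *Cd36* ran from −1.21 to 0.10, *Tlr2* from −0.32 to 0.05, *Prom1* from −0.52 to 0.10, *Mki67* from −0.77 to 0.05, *Stat3* from −0.003 to 0.06 and *Id3* from −0.08 to 0.11. The causes were not tested.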
